A study of Mus musculus with 2 samples.

Results

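The SOCS inhibitors, Stat3 and the receptor chains of the interleukin-6 family were read in RNA of whole kidneys from mice that do or do not have an inherited cystic disease. The 9 genes (Socs1, Socs2, Socs3, Cish, Stat3, Il6st, Il6ra, Lifr and Osmr) were chosen by name, as every probe set whose platform symbol is one of them. The choice was made with earlier results of these data known, so counts among these genes are descriptions. They are 9 of 18193 named genes and have 27 of the 45037 probe sets used. The cystic kidney came from inv/inv mice that carry the inv-deltaC::GFP transgene, and the control kidney from +/+ mice with the same transgene. The inv mutation disrupts Invs, which encodes the cilium protein inversin, and models nephronophthisis type 2. The transgene encodes inversin without its C-terminus, and both groups carry it. By the labels, mutants with it develop kidney cysts but have no situs abnormality. The mice were 4 weeks old by the series design, and the cystic array is labelled 28 days. Each group has 1 array, the series design mentions a pair of kidneys of each kind, and the number of animals behind an array was not clear from it, so no test was possible, and the number of arrays limits the precision. A difference was called at 2-fold, and a gene is said to have risen or fallen only past that limit.

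Cytokines of the interleukin-6 family bind a specific receptor chain (Il6ra for interleukin-6, Lifr or Osmr for leukaemia inhibitory factor and oncostatin M) that pairs with the shared chain gp130, encoded by Il6st. Kinases of the JAK family, bound to gp130, then phosphorylate the transcription factor STAT3, which enters the nucleus. STAT3 induces Socs3, whose protein binds gp130 and its JAK kinases and ends the signal. The related inhibitors Socs1, Socs2 and Cish act mainly on other receptors. Socs1 acts mainly after interferons, and Socs2 and Cish mainly after growth hormone and other activators of STAT5.

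Values are the linear signal of the MAS5 algorithm, which combines the probes of a probe set into 1 number. Each array's median signal, 61.9 for the cystic and 55.4 for the control kidney, served as the floor. Where neither array reached its floor, the probe set is called not measured. A signal under the floor on 1 array was raised to it, and the ratio is then a bound. Log2 ratios are cystic minus control, and a gene takes the value of its brightest probe set, by mean log2 signal.

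The brightest probe set of Invs had a signal of 15.9 in the cystic kidney, under the floor, against 118 in the control kidney, at least 1.91-fold lower. The remaining Invs probe sets were not measured, with 22.1 and 54.2 in the cystic and 36 and 5.4 in the control kidney. The cystic array is labelled female, yet its Xist probe sets read 57.4, 2.3 and 14.2, all under the floor, against 387, 281.6 and 34.6 on the control array. The Y-linked gene Uty read 197.6 in the cystic and 205.7 in the control kidney at its brightest probe set, and Kdm5d read 194.2 in the cystic and 151.5 in the control kidney. The label of the cystic array therefore goes against its sex-linked transcripts, and the control array, with no sex given, holds signal for Xist and for Y-linked genes alike. The effects of sex and of genotype cannot be told apart in the values given here.

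Socs3, Osmr, Stat3, Il6ra and Socs2 rose in the cystic kidney, 5 of the 8 members measured, against 6.96% of 11994 measured genes. None of the 8 fell, against 3.78% of measured genes. As the members were chosen with earlier results of these data known, the shares of all genes stand beside these counts without a test. Socs3 was at least 11.8-fold and Osmr 9.41-fold higher, Stat3 was 2.64-fold, Il6ra 2.21-fold and Socs2 2.06-fold higher. Il6st, Lifr and Cish had log2 ratios of 0.73, 0.23 and -0.32, and Socs1 was not measured. The median of the 8 was 1.09, beside a median of 0.09 over all measured genes. After centring the arrays on their medians, or with quantile normalization, 3 members rose (Socs3, Osmr and Stat3). Of all measured genes, 4.98% rose after centring and 5.45% with quantile normalization. Socs2 and Il6ra lay under 2-fold with log2 ratios of 0.88 and 0.98 after centring. In RNA of a whole organ, a change in the number of cells of a type and a change in RNA per cell cannot be told apart.

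**Figure D1:**
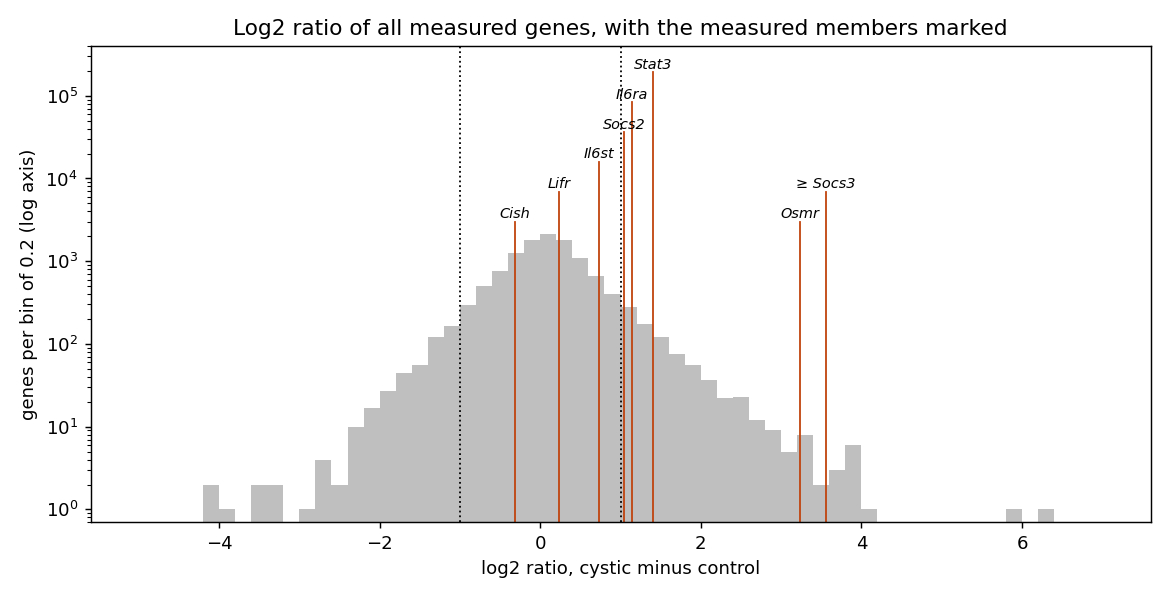
Histogram of the log2 ratio (cystic minus control) of all 11994 measured genes, in bins of 0.2 on a log axis, with a line at each of the 8 measured members; the height of a line carries no value. Dotted lines mark 2-fold, and Socs3 (at least 3.56) and Osmr (3.23) stand in the far right tail while Cish (-0.32), Lifr (0.23) and Il6st (0.73) lie within 2-fold.

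Markers of several cell types differed between the kidneys as well. Over all measured genes 6.96% rose and 3.78% fell, so counts of 0 or 1 in these short lists say little. Of 10 macrophage markers 8 rose, and their summed signal was 10216 in the cystic and 2123 in the control kidney. All 7 fibroblast and smooth muscle markers rose, with sums of 26606 in the cystic and 5612 in the control kidney. Of 8 proximal tubule markers 5 fell, with sums of 17269.9 in the cystic and 34952 in the control kidney. In the loop of Henle and distal tubule 2 of 6 markers fell, with sums of 16536 in the cystic and 23970.2 in the control kidney. None of the 6 endothelial markers passed 2-fold, with sums of 2165 in the cystic and 2069 in the control kidney. Of the 6 collecting duct markers 1 fell, with sums of 3841 in the cystic and 3742.5 in the control kidney, and of the 4 measured podocyte markers 1 fell, with sums of 1011 in the cystic and 1443 in the control kidney. Of the blood and liver lists 2 of 7 neutrophil, 1 of 7 lymphocyte and 3 of 6 hepatocyte markers were measured, none past 2-fold. Their sums in the cystic kidney were 229, 129 and 1623, against 186, 205 and 2997 in the control kidney. Cyp2e1, which the kidney also expresses, carries the hepatocyte sums, which were 172 in the cystic and 199 in the control kidney without it. The defining tubule markers Slc34a1, Slc12a1 and Aqp2 lay far above the floors in both kidneys. The part of these cell types in the differences of the members was not tested.

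Of the 27 member probe sets, 22 were measured, 16 above the floor on both arrays and 6 as bounds. At least 2-fold higher signals were seen for 13 of them, against 6% of all 24332 measured probe sets, and at least 2-fold lower signals for 0, against 3.21%. The other 9 split into 5 with a log2 ratio between 0 and 1 and 4 below 0. Whether the probe sets of a gene read the same transcript forms was not checked. Different probe sets of a gene were read on the same pair of arrays, so their spread says nothing of differences between animals. Over 4694 genes their log2 ratios had a pooled SD of 0.29. Members with at least 2 measured probe sets numbered 7, with SDs, bounds included, from 0.30 for Socs3 to 0.79 for Stat3. In 2 of these 7, Socs3 and Osmr, all measured probe sets were at least 2-fold higher, against 2.49% of 5428 genes with at least 2 measured probe sets.

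**Figure D2:**
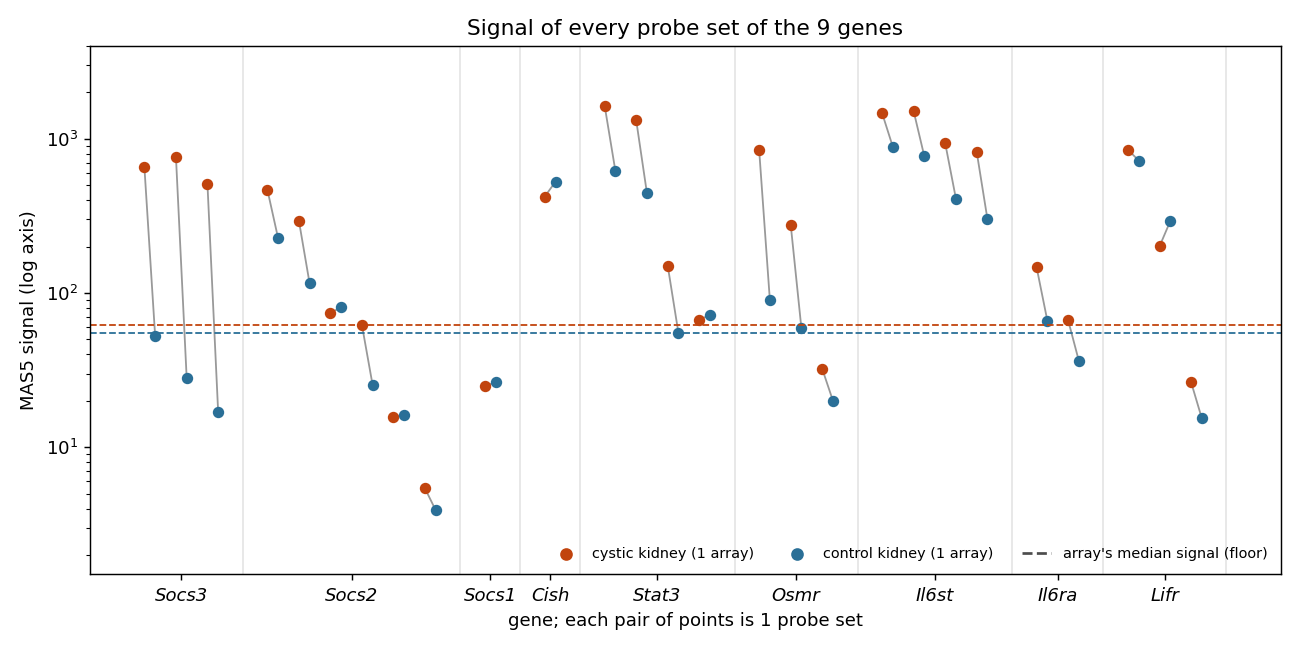
MAS5 signal (log axis) of each of the 27 probe sets of the 9 genes, with the cystic kidney on the left and the control kidney on the right of each pair, 1 array each; dashed lines are the floors of 61.9 (cystic) and 55.4 (control). All 3 Socs3 probe sets lie far above the floor in the cystic kidney (505.5 to 766.1) and below it in the control kidney (16.8 to 52.9), whereas the Cish pair runs the other way (422.2 and 527).

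Among the inhibitors, Socs3, the feedback inhibitor of gp130 signalling, had the highest ratio of the members. Its probe sets read 652.7 (1456212_x_at), 766.1 (1455899_x_at) and 505.5 (1416576_at) in the cystic kidney, against 52.9, 28.3 and 16.8 in the control kidney. All 3 control signals lay under the floor, so the differences are bounds of at least 11.8-fold, 13.8-fold and 9.12-fold. The suffix of the first pair marks probes that may bind other transcripts as well, while 1416576_at carries no such mark. With bounds counted at their limits, the Socs3 ratio ranked 13 from the top among 11994 measured genes, a rank that is not exact, since Socs3 and 1307 genes in all are bounds.

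Socs2, an inhibitor of growth hormone signalling, rose at its brightest probe set, with a signal of 468.1 in the cystic and 227 in the control kidney. The probe set next in brightness, 1449109_at, read 294.3 in the cystic and 115.4 in the control kidney, 2.55-fold higher. Probe set 1442586_at had 74 in the cystic and 81 in the control kidney, near the floors, with a log2 ratio of -0.13. Another stood at 61.9, exactly the floor, in the cystic kidney and at 25.2, under the floor, in the control kidney, and the last pair was not measured. The Socs2 call therefore rests on 2 of its 4 measured probe sets, which are also the brightest ones. Cish, a STAT5-induced inhibitor, had 1 probe set, with 422.2 in the cystic and 527 in the control kidney, a log2 ratio of -0.32 that did not reach 2-fold. Socs1, the inhibitor of interferon signalling, had signals of 25 in the cystic and 26.3 in the control kidney, both under the floor, and has no ratio.

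The promoters of Socs3, which rose, and Cish, which did not, are shown because each holds a motif of STAT factors. RefSeq promoter windows of 300 bases (250 before and 50 after the annotated start, assembly GRCm38.p6) were found for 8 of the 9 members, 9 windows in all; Socs2 was not searched. The motif searched was TTCNNNGAA, which reads the same on both strands. It was present in 2 of the 9 windows, those of Socs3 and Cish, and in 8.30% of all 32851 windows. A match in the Socs3 window began 154 bases before the start, and the Cish window held a pair of matches at and just after the start. Windows with 2 or more matches at any position made up 0.457% of all windows. The windows of Stat3, Osmr, Il6st, Il6ra, Lifr and Socs1 held no such letters. The windows are printed 5′ to 3′ on the strand of the gene, Socs3 from the minus strand at chr11:117969317-117969616 and Cish from the plus strand at chr9:107296409-107296708, with the motif in capitals.
Socs3: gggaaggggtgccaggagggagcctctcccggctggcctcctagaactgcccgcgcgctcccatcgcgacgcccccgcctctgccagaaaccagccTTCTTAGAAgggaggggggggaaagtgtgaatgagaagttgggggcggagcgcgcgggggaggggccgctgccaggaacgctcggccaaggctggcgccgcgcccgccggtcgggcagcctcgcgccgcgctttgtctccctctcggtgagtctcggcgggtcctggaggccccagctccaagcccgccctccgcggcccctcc
Cish: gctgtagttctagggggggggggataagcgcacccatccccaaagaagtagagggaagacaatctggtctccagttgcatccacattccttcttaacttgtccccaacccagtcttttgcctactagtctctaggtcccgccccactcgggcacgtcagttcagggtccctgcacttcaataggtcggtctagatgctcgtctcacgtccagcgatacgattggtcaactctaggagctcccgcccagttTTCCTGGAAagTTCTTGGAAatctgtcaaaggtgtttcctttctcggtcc
The capital letters describe these windows and were not read as sites in use.

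Stat3, the transcription factor of the pathway, rose at 3 of its 4 probe sets. The brightest, 1426587_a_at, read 1631.8 in the cystic and 617.5 in the control kidney, and 1460700_at read 1315.8 in the cystic and 443.8 in the control kidney, which is 2.96-fold higher. The dimmer 1459961_a_at read 149.8 in the cystic kidney and 54.9, just under the floor, in the control kidney, at least 2.70-fold higher. The fourth, 1424272_at, gave 66.8 in the cystic and 72.3 in the control kidney, close to the floors, with a log2 ratio of -0.11. The log2 ratios of the 3 higher probe sets lay between 1.40 and 1.57, 1 of them a bound. The Stat3 ratio was at least reached by 3.16% of measured genes.

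Among the receptor chains, Osmr, a chain for oncostatin M, had the highest ratio. Its brightest probe set, 1418674_at, read 841.6 in the cystic and 89.4 in the control kidney. A second, 1418675_at, read 277.3 in the cystic kidney and 58.9, little above the floor, in the control kidney, 4.71-fold higher. The third, 1459217_at, was not measured, with 32.2 in the cystic and 20 in the control kidney. The log2 ratios of the measured pair, 3.23 and 2.24, lie further apart than the pooled SD between probe sets, and both exceed those of every probe set of Il6st, Il6ra and Lifr. The Osmr ratio ranked 22 from the top among measured genes, with bounds again at their limits.

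Il6st, which encodes the shared chain gp130, had 4 probe sets, all brighter in the cystic kidney. They read 1465.7, 1508.9, 937.2 and 821.4 in the cystic kidney, against 885.8, 767.9, 409.7 and 301.8 in the control kidney. Their log2 ratios were 0.73, 0.97, 1.19 and 1.44, a mean of 1.08 ± 0.31 (SD, n = 4 probe sets of 1 array pair). The brightest probe set has the smallest of the 4 ratios and lies under 2-fold (1.65-fold), and the dimmer pair lies over it (2.29-fold and 2.72-fold), so the call for Il6st depends on the probe set.

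Il6ra, the binding chain for interleukin-6, read 146.6 in the cystic kidney and 66.3, little above the floor, in the control kidney. Its second probe set read 66.6 in the cystic kidney, also near the floor, and 36.3 under it in the control kidney, a bound of at least 1.20-fold. Lifr, the chain for leukaemia inhibitory factor, was bright at 1454984_at, with 847.7 in the cystic and 722.3 in the control kidney. Another probe set of Lifr, 1425107_a_at, gave 200.8 in the cystic and 292.4 in the control kidney, a log2 ratio of -0.54. The Lifr probe sets thus differed in sign, neither passed 2-fold, and the third was not measured, with 26.4 in the cystic and 15.4 in the control kidney.

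Other genes of the pathway were read through 8 lists chosen with earlier results of these data known, so their counts are descriptions. In the 7 lists other than STAT3 targets, the median log2 ratio of 30 measured genes was 0.12. None of the 30 fell, against 3.78% of all measured genes. The genes that rose were 3 (Clcf1, Jak3 and Ptpn1), against 6.96% of all measured genes. None of these 3 kept its call under median centring (0.86, 0.97 and 0.86) or quantile normalization (0.83, 0.97 and 0.99), and with equal trimmed means only Jak3 did (1.11). Among the ligands, 3 of 10 were measured. Clcf1, a cytokine that signals through gp130 and Lifr with the chain of ciliary neurotrophic factor, rose with 119.5 in the cystic and 59.1 in the control kidney, 2.02-fold higher, and its 3 probe sets had log2 ratios from 0.92 to 1.25. Il11 read 67.7 in the cystic and 2.7 in the control kidney, a bound of at least 1.22-fold set by the floor. Cardiotrophin, Ctf1, had a log2 ratio of 0.05, which turned to -0.11 with median centring and -0.09 with quantile normalization.

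The ligands that give the family its name were not measured. Il6 had 40.6 in the cystic and 1.4 in the control kidney, and Lif had 59.6 in the cystic and 12 in the control kidney, both under the floors. Osm, a ligand of the Osmr chain, had 43 in the cystic and 37.6 in the control kidney. Ebi3, with 59.4 in the cystic and 27.2 in the control kidney, and Il31, with 2.2 in the cystic and 0.4 in the control kidney, were under the floors too. Cntf and Il27 were not analysed here. Of the remaining receptor chains only Cntfr was measured, with a log2 ratio of 0.24, while Il27ra and Il31ra were under the floors and Il11ra1 was not analysed here.

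Of the JAK kinases, Jak3, the kinase of the common gamma chain receptors of blood cells, rose with 290.4 in the cystic and 132.4 in the control kidney, 2.19-fold higher. Tyk2 had a log2 ratio of 0.32. Jak1, the main kinase at gp130, had -0.05, which turned to 0.05 with quantile normalization, and Jak2 had 0.12, which turned to -0.04 with median centring. The other STAT factors lay within 2-fold, Stat6 with 0.64, Stat2 with 0.46, Stat5b with -0.15 and Stat5a with -0.55, and Stat4 was under the floors.

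The SOCS genes outside the members lay within 2-fold as well. Socs5 had 0.27 and Socs7 -0.49. Socs4 had 0.16, which turned to -0.003 with median centring, and Socs6 had 0.12, which turned to -0.04 with that centring. Of 8 further inhibitors, which include the PIAS proteins and phosphatases, Ptpn1 rose at its brightest probe set, with 826.6 in the cystic and 408.7 in the control kidney, and had a log2 ratio of 0.33 at another probe set. The lowest of these inhibitors were Pias2 and Pias1, with -0.08 and -0.06.

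Of 27 genes that STAT3 is known to induce, 24 were measured, with a median of 2.02. Of these, 16 rose and 0 fell, against 6.96% and 3.78% of all measured genes. After median centring 15 rose, against 4.98% of all measured genes. Bounds make up 8 of the 16. With bounds counted at their limits, so that the order is not exact, the largest ratios were those of Lcn2 (at least 83.2-fold), the fibrinogen chain Fgg (14.3-fold), the protease inhibitors Timp1 (at least 10.1-fold) and Serpina3n (at least 7.79-fold), the transcription factor Myc (7.73-fold) and the adhesion receptor Icam1 (6.49-fold). At the opposite end the cyclin Ccnd1 had a log2 ratio of -0.41 and the growth factor Vegfa -0.30. These genes are also induced by other factors. On the STAT5 side, where Cish and Socs2 belong, 0 of 6 measured genes passed 2-fold, with a median of -0.26. Over all measured genes, 6.96% were at least 2-fold higher and 3.78% at least 2-fold lower. Ghr, the growth hormone receptor, was closest to that limit with 2279.1 in the cystic and 4444.2 in the control kidney, a log2 ratio of -0.96, and its 3 probe sets lay between -1.23 and -0.96. With median centring Ghr had -1.12, past 2-fold lower. It stayed within 2-fold with quantile normalization (-0.80) and with equal trimmed means (-0.99). Igfals, a carrier subunit of insulin-like growth factors, was a bound of -0.56. The remaining genes were Igf1 with -0.44, Epor with -0.08, Pim2 with 0.20 and Igfbp3 with 0.01, whose sign turned with median centring (-0.15) and equal trimmed means (-0.02); Prlr was not analysed here.

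**Figure D3:**
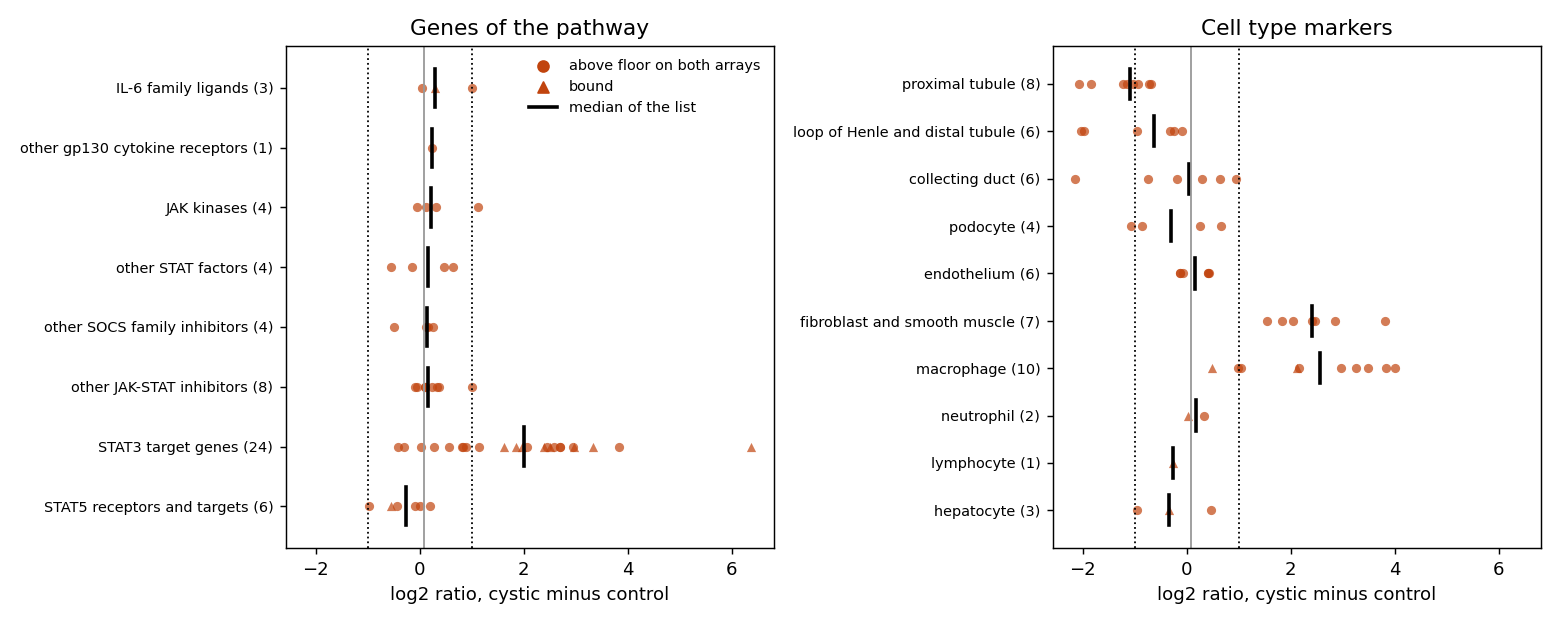
Log2 ratio (cystic minus control) of each measured gene in the 8 pathway lists (left) and the 10 cell type lists (right), with the number of measured genes in brackets, bounds as triangles and the median of a list as a black bar; the grey line is the median of all genes (0.09) and dotted lines mark 2-fold. STAT3 targets (median 2.02), macrophage (2.57) and fibroblast markers (2.42) lie to the right, while the medians of the kinases, the STAT factors and both lists of further inhibitors lie between 0.14 and 0.22 (-0.02 to 0.06 after median centring).

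**Figure D4:**
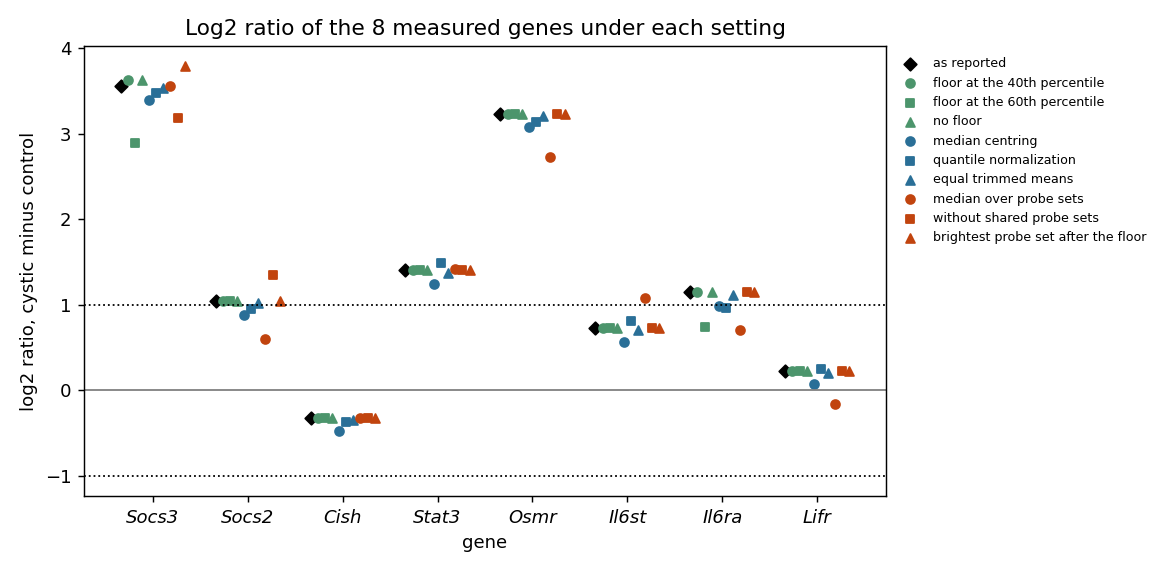
Log2 ratio (cystic minus control) of the 8 measured members as reported and under 9 other settings of the floor (green), the scaling (blue) and the probe set used (red); dotted lines mark 2-fold. Socs3, Osmr and Stat3 stay above 2-fold throughout, Socs2, Il6ra and Il6st cross it, and Cish and Lifr stay within it.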

How the data were processed

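Total RNA of kidney was labelled with biotin and hybridised to Affymetrix arrays, 1 per group, and the titles gave the groups. The deposited values are a linear intensity per probe set, made with MAS5 per the submitters' processing notes, with version, scaling target and detection calls not given in the sources used here. Their scaling was kept, as the 2% trimmed means were 181 for the cystic and 178 for the control array. Of 45101 probe sets, 64 controls were left out; 34945 named 1 gene, 932 several and 9160 none here. Symbols were updated through a RefSeq table of GRCm38.p6, which held 34741 of those naming 1 gene. Of 18193 genes, 11994 were measured, 10687 above the floor on both arrays. The brightest probe set was chosen by mean log2 signal, with signals under 1 set to 1. With 1 array per group no p-value is given. The steps were tested on simulated data, with differences planted only in genes with a probe set well above the median signal. Bounds were checked on a small made-up example alone. The members and lists were chosen with earlier results of these data known. All members and probe sets are named; from lists with under 7 measured genes all are named, and from larger lists up to 6 genes past 2-fold and the 2 at the opposite end. The genes closest to Socs3 are not given, as its ratio is a bound. Cell type markers are given as sums and counts, with defining ones by name. Alternatives concerned the floor (40th or 60th percentile or none), the scaling, the probe set and a 1.5-fold limit. Python 3.11.15, pandas and numpy were used.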

Additional observations from a re-analysis of the deposited data

How the results depend on the processing

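Socs3, Osmr and Stat3 were at least 2-fold higher under every alternative run, and no member was at least 2-fold lower under any. The count of members that rose, 5 as reported, was 3 with median centring and 3 with quantile normalization. It lay between 4 and 6 otherwise. Il6ra or Socs2 was lost under some settings, and Il6st was past 2-fold with the median over probe sets (1.08) and counted at 1.5-fold. Of all measured genes, 4.98% rose with median centring, 5.45% with quantile normalization and 16.3% at the 1.5-fold limit. The median of the members stayed between 0.89 and 1.25. The log2 value of Socs3 was 2.89 with the floor at the 60th percentile and 3.19 without probe sets marked as shared. It lay between 3.40 and 3.79 otherwise. The value of 2.89 follows from the higher floor. With the floor at the 40th percentile or none, it was 3.63, a ratio of the signals as given and not a bound. Of 72 recomputed member ratios, 63 moved by no more than the SD between probe sets, 9 by more, and 0 of those past 2-fold changed sign; Lifr turned to -0.16 with the median over probe sets. Over all genes, 835 were higher and 453 lower; with no floor 2098 and 1667, and at 1.5-fold 1960 and 1296. Higher genes made up 64.8% of those past 2-fold and 47.1% with median centring, which moved the median of all genes from 0.09 to -0.07. Choosing the brightest probe set after the floor was added after seeing the data. No paired analysis was possible because each group has 1 array. Signals near or under the floors, as for Il6ra, Socs1, the cytokines and the control signal of the second Osmr probe set, limit what can be read.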
